A study of Mus musculus with 17 samples.

Results

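The phosphofructokinase and PFKFB families were taken as 7 genes, found in the count table by matching Ensembl identifiers to the gene symbols of the GENCODE mouse annotation. They were 7 of the 55359 genes of the table. The 3 phosphofructokinase subunit genes were Pfkl, Pfkm and Pfkp, and the 4 genes of 6-phosphofructo-2-kinase/fructose-2,6-bisphosphatase were Pfkfb1, Pfkfb2, Pfkfb3 and Pfkfb4. RNA was sequenced from testes and forebrain of male mice at postnatal day 1, in 17 libraries. The mice belonged to the OcnGK strain, in which osteocalcin, a hormone made by osteoblasts, was inactivated by homologous recombination on a 129/SvEv background. In testes there were 2 WT, 3 Ocn+/- and 3 Ocn-/- libraries, and in forebrain 3 of each genotype. Brain samples are labelled hippocampus, while the study's methods name forebrain and its results describe this as holding the hippocampus. WT pups came from WT mothers and both mutant genotypes from Ocn-/- mothers, so that the genotype of the pup, that of the mother and the litter cannot be told apart in any comparison with WT. Where same-numbered libraries of both organs came from, and which pups were littermates, is not given, so p-values measure the spread between these libraries.

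Phosphofructokinase-1 turns fructose 6-phosphate into fructose 1,6-bisphosphate, the committed step of glycolysis, and works as a tetramer. Its subunits are named after liver (Pfkl), muscle (Pfkm) and platelets (Pfkp), but most tissues hold mixtures of them. The PFKFB enzymes carry a kinase and a phosphatase in a single protein and set the level of fructose 2,6-bisphosphate, the strongest activator of phosphofructokinase-1. Pfkfb3 has the highest ratio of kinase to phosphatase activity and is induced by hypoxia and growth signals, Pfkfb1 is known from liver and muscle, Pfkfb2 from heart and Pfkfb4 from testis. The brain and the supporting cells of the testis both use much glucose, the first as fuel and the second to make lactate for germ cells.

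Counts were compared with edgeR's quasi-likelihood test, and a gene was called where its p, adjusted over all genes tested, was under 0.05. In the mutant mice the transcripts of 2 phosphofructokinase subunits fell in both organs. Pfkl was 0.496 times its WT level in Ocn+/- testes and 0.582 times in Ocn+/- forebrain, and Pfkp was 0.576 and 0.57 times its WT level. The third subunit gene, Pfkm, did not pass the test in either organ. Among the PFKFB genes Pfkfb3 fell, in testes, to 0.596 times its WT level in Ocn+/- and 0.662 times in Ocn-/- pups. No member was called higher than in WT, which 1.21% to 3.89% of all genes tested were. None was called between Ocn+/- and Ocn-/- pups, where 0% of all genes tested were called in testes and 0.00622% in forebrain. The calls in forebrain held with any library left out, whereas those in testes, which rest on 2 WT libraries, did not.

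The 7 genes lie on 7 chromosomes. On GRCm39 Pfkl spans chr10:77818084-77845922 on the minus strand, Pfkm chr15:97990451-98031417 on the plus strand and Pfkp chr13:6629798-6698970 on the minus strand. Pfkfb1 spans chrX:149371225-149426874 on the plus strand and Pfkfb2 chr1:130616779-130656990 on the minus strand. Pfkfb3 spans chr2:11476244-11558888 on the minus strand and Pfkfb4 chr9:108820832-108862847 on the plus strand. All of them are protein-coding. Pfkl overlaps Cfap410 and Pfkp overlaps Pitrm1, each on the opposite strand, and Pfkfb2 overlaps Gm29427 on its own strand and Yod1 on the other. Of the stretches of 50 bases in the main transcript, 23.3% in Pfkl, 41.8% in Pfkp and 39.2% in Pfkfb2 also occur in another gene, against at most 0.785% in the other 4 members. Whether reads were counted by strand is not given in the sources used here, so the division of reads in these overlaps is uncertain. The deposited counts were whole in every library for Pfkl and Pfkfb2, and had a fraction in every library for Pfkp. Cfap410 and Pitrm1 themselves were not called in any comparison with WT (log2 fold changes of 0.12 to 0.36 and of -0.14 to 0.00, edgeR, adjusted p of 0.388 or more), unlike Pfkl and Pfkp. Yod1 was called in 1 of them, with a log2 fold change of -0.88 ± 0.208 (SE) in Ocn-/- forebrain (edgeR, adjusted p = 0.0322).

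The promoters of the 3 members that were called in at least 1 comparison with WT are shown as the 250 bases before each start site in RefSeq (build GRCm38.p6, a reference of another mouse strain than the one studied). Capitals mark ACGTG and GCGTG on either strand, the core of the element that hypoxia-inducible factors bind. ACGTG also lies within CACGTG, the E-box that other factors bind. The coordinates are those of GRCm38.p6, and all of these windows lie on the minus strand at chr10:78009808-78010057, chr13:6648772-6649021, chr2:11553930-11554179 and chr2:11502091-11502340, in the order of the lines.
Pfkl: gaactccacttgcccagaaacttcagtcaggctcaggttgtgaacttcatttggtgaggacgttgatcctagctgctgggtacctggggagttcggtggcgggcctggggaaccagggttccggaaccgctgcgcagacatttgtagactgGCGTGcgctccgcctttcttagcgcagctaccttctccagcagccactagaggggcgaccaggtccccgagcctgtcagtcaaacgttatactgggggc
Pfkp: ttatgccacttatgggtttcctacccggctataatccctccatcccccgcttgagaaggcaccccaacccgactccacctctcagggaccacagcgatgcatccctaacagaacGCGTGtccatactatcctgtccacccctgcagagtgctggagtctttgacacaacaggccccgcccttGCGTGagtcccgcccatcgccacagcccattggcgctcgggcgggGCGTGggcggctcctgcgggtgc
Pfkfb3, first start: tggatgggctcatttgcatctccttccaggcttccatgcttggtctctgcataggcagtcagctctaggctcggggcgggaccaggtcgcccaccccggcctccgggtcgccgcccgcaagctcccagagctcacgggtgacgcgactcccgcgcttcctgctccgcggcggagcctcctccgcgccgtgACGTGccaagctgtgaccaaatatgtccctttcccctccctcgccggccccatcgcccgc
Pfkfb3, second start: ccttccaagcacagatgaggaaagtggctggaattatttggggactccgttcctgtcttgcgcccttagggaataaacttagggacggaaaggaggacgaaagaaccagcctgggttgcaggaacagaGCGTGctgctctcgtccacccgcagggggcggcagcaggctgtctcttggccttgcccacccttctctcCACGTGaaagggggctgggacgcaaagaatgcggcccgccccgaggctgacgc
Pfkl held 1 such motif, which began 99 bases before the start. Pfkp held 3, at 136, 68 and 23 bases. Pfkfb3 held 1 at its first start, at 60 bases, and 2 at its second, at 122 and 53 bases, the last within CACGTG. The motif is common, since 38.6% of all 32851 promoter windows of the table held it and 13.5% held 2 or more. Over all 7 members, which matched by symbol, 12 of 16 windows held it, some of them overlapping each other. These included windows of each of the 4 members that were not called in any comparison with WT (Pfkm, Pfkfb1, Pfkfb2 and Pfkfb4). Each of the 7 members thus held the motif in at least 1 window, as did 41.5% of 27025 genes. Whether the motif is related to the calls was not tested.

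Counts per library summed to between 7302401 and 8289015 in testes and between 6518151 and 14621584 in forebrain. Forebrain WT 3 stood apart, with the lowest total, the lowest normalization factor (0.866) and the largest median distance to the other forebrain libraries (0.665 on the log2 scale, against 0.458 to 0.535), and the tests of members and the counts for 2 gene lists in forebrain are therefore also given without it. The targeted genes could not check the genotypes. Bglap had 0 to 5 counts in every library and Bglap2 had 0, which allows up to 3 counts per library. Markers fitted the organs, since 6 Sertoli cell genes summed to 1130 to 1690 CPM (counts scaled to a common library size) in testes and 43 to 63.2 in forebrain, and 6 neuronal genes to 6290 to 6880 CPM in forebrain and 111 to 159 in testes. The labels give no batch.

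**Figure D1:**
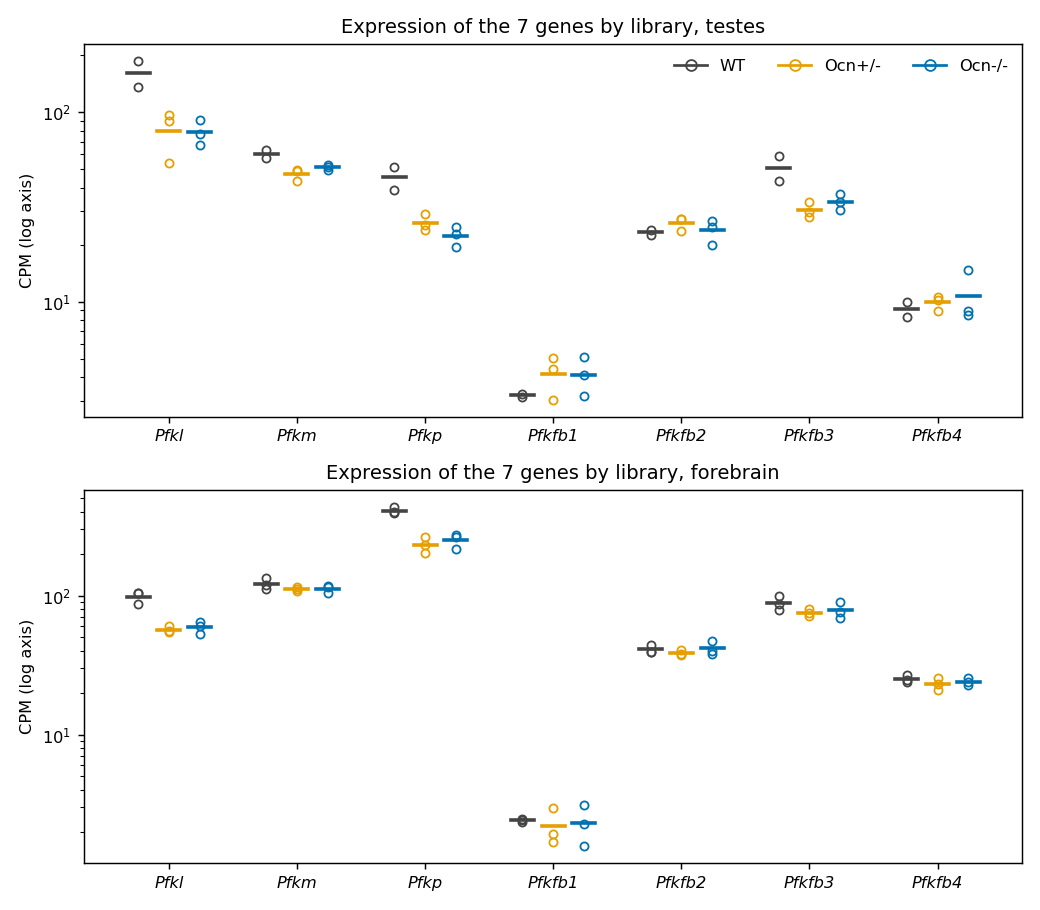
CPM of each member on a log axis (TMM normalization within each organ), 1 point per library with a line at the mean of each genotype, for testes above and forebrain below. The mutant points of Pfkl and Pfkp lie below all WT points in both organs, and those of Pfkm and Pfkfb3 in testes. This held for 13.6% of all genes tested in testes and 8.57% in forebrain. Mutant Pfkl ran from 53.8 to 96.3 CPM against 136 and 187 in testes, and mutant Pfkp from 201 to 271 against 396 to 433 in forebrain.

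Pfkl encodes the liver-type subunit. In testes it stood at 136 and 187 CPM in the 2 WT libraries, at 96.3, 53.8 and 90.3 in Ocn+/- and at 91, 77.1 and 67.1 in Ocn-/- libraries. No mutant testis reached the level of a WT testis, which held for 13.6% of all genes tested. Ocn+/- replicate 2 was the lowest of all. The log2 fold change was -1.01 ± 0.244 (SE) in Ocn+/- (edgeR quasi-likelihood test, Benjamini-Hochberg adjusted p = 0.0394) and -1.04 ± 0.244 in Ocn-/- testes (edgeR, adjusted p = 0.0429). Both calls were lost with library size alone as the scaling (edgeR, adjusted p = 0.0517 and 0.054) and with a block on replicate numbers (0.145 and 0.143). That in Ocn+/- testes was also lost in a fit of Ocn+/- and WT alone (edgeR, adjusted p = 0.0631). In forebrain Pfkl stood at 86.5, 104 and 104 CPM in WT, at 55.7, 54.9 and 60.2 in Ocn+/- and at 64.3, 60.1 and 53.1 in Ocn-/- libraries. All mutant libraries again lay below WT, which held for 8.57% of all genes tested, while the range of Ocn+/- lay within that of Ocn-/- libraries. The log2 fold change was -0.78 ± 0.0997 in Ocn+/- (edgeR, adjusted p = 0.000206) and -0.73 ± 0.0997 in Ocn-/- forebrain (edgeR, adjusted p = 0.000443). By p-value this placed Pfkl at rank 14 and rank 18 of 16076 genes tested in forebrain.

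Pfkp encodes the platelet-type subunit, which is also known from brain. In testes, where it was low, it stood at 39.1 and 51.6 CPM in WT, at 23.9, 29.1 and 25.3 in Ocn+/- and at 24.7, 19.4 and 22.9 in Ocn-/- libraries. The highest mutant value was well below the lowest WT value. All mutant libraries lay below all WT libraries for 13.6% of all genes tested in testes and 8.57% in forebrain. The log2 fold change was -0.80 ± 0.175 in Ocn+/- (edgeR, adjusted p = 0.0136) and -1.02 ± 0.175 in Ocn-/- testes (edgeR, adjusted p = 0.00321). In forebrain Pfkp stood at 433, 396 and 397 CPM in WT, at 233, 201 and 264 in Ocn+/- and at 271, 217 and 266 in Ocn-/- libraries. The 3 WT libraries were close to each other and every mutant library was far below them. The log2 fold change was -0.81 ± 0.0991 in Ocn+/- (edgeR, adjusted p = 0.000221) and -0.70 ± 0.0989 in Ocn-/- forebrain (edgeR, adjusted p = 0.000834).

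Pfkm encodes the muscle-type subunit. In testes it stood at 57.1 and 63.3 CPM in WT, at 43.3, 49.3 and 48.8 in Ocn+/- and at 49.8, 51.5 and 52.4 in Ocn-/- libraries. Each mutant testis was lower than WT, as for 13.6% of all genes tested, by less than for the other subunits. Neither genotype was called (log2 fold changes of -0.35 ± 0.132 and -0.23 ± 0.132, edgeR, adjusted p = 0.103 and 0.307). In forebrain it ranged from 111 to 133 CPM in WT and from 104 to 117 in the mutant libraries, which overlapped. The log2 fold change was -0.11 in both genotypes, with 95% confidence intervals of -0.29 to 0.07 (edgeR, adjusted p = 0.49 and 0.48).

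Pfkfb3 encodes the PFKFB isoform with the strongest kinase. In testes it stood at 59 and 43.2 CPM in WT, at 29.6, 33.7 and 27.9 in Ocn+/- and at 33.8, 30.5 and 37 in Ocn-/- libraries. The mutant testes all lay below WT, as for 13.6% of all genes tested, but the 2 WT testes were further apart than any pair of mutant ones. The log2 fold change was -0.75 ± 0.166 in Ocn+/- (edgeR, adjusted p = 0.0143) and -0.60 ± 0.165 in Ocn-/- testes (edgeR, adjusted p = 0.0447). The call in Ocn-/- testes was lost with library size alone (edgeR, adjusted p = 0.0739) and with a block on replicate numbers (0.0681). It was also lost in a fit of Ocn-/- and WT alone (edgeR, adjusted p = 0.0573). In forebrain it stood at 78.4, 86.6 and 99.4 CPM in WT, at 80.1, 71.7 and 74.6 in Ocn+/- and at 90.6, 75.9 and 69.3 in Ocn-/- libraries. These groups overlapped, and the log2 fold changes of -0.22 ± 0.107 and -0.16 ± 0.107 were not called (edgeR, adjusted p = 0.262 and 0.406). Without forebrain WT 3 they were -0.12 and -0.07.

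The other 3 PFKFB genes were not called in any comparison with WT. Pfkfb1, the isoform of liver and muscle, was the lowest member, at 3.03 to 5.1 CPM in testes and 1.58 to 3.11 CPM in forebrain, and rested on 14 to 44 counts per library. Its wide intervals, from -0.42 to 1.19 for the log2 fold change in Ocn+/- testes, leave changes in either direction possible. Pfkfb2, the heart isoform, lay between 20 and 27.4 CPM in testes and between 37.4 and 47.4 CPM in forebrain. Its log2 fold changes ran from -0.09 to 0.17 over the 4 comparisons. Pfkfb4, although known from testis, was lower there, between 8.29 and 14.7 CPM, than in forebrain, between 20.9 and 26.7 CPM. Its log2 fold changes ran from -0.12 to 0.24. For both genes the mutant and WT libraries overlapped in both organs. Over these 3 genes the adjusted p of edgeR was 0.562 or more.

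**Figure D2:**
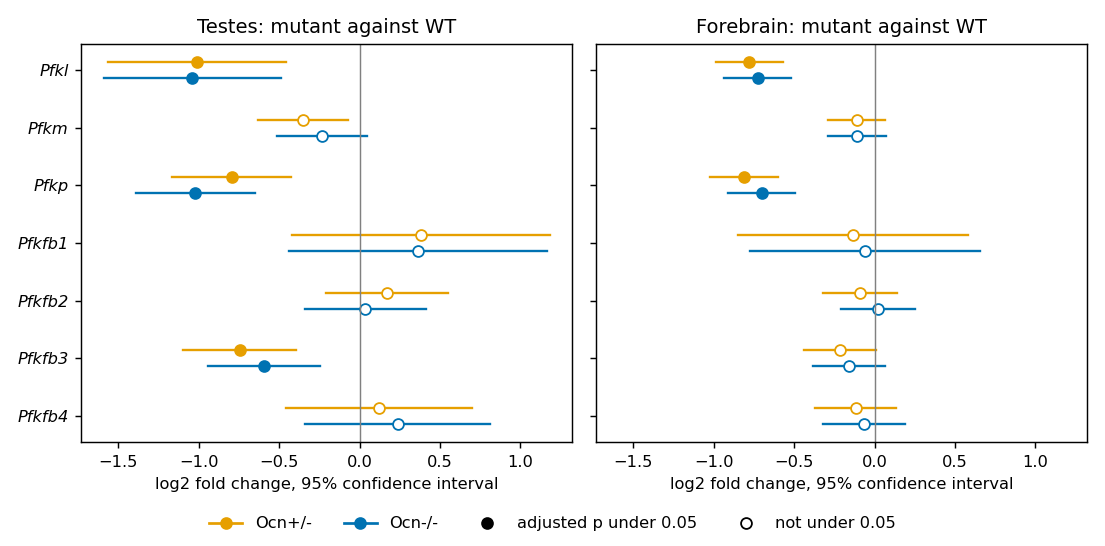
Log2 fold change of each member in Ocn+/- and Ocn-/- pups against WT with its 95% confidence interval (edgeR), for testes on the left and forebrain on the right, with filled points where the adjusted p was under 0.05. The intervals of Pfkl and Pfkp lie below 0 in all 4 comparisons, while Pfkfb3 is filled in testes alone, where the intervals are wider.

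All 7 members passed the filter on low counts in every fit. In testes 3 of 7 members were called lower in Ocn+/- pups, against 4.36% of the 16361 genes tested (8.25% in either direction). The same 3 were called in Ocn-/- pups, against 3.09% (5.64%). In forebrain 2 of 7 were called lower in each genotype, against 2.68% of 16076 genes (3.89%) in Ocn+/- and 3.05% (4.85%) in Ocn-/- pups. None of the 7 was called higher, where 3.89% and 2.54% of all genes were in testes and 1.21% and 1.8% in forebrain. The median log2 fold change of the members was -0.35 and -0.23 in testes and -0.14 and -0.11 in forebrain, beside medians over all genes tested between -0.01 and 0.01. All 6 mutant libraries lay below all WT libraries for 4 members in testes, where this held for 13.6% of all genes, and for 2 members in forebrain, where it held for 8.57%. No member had all mutant libraries above all WT libraries, which held for 12.5% of genes in testes and 6.85% in forebrain. Of all genes called, 47.2% were higher in Ocn+/- testes (68.1% when scaled by library size alone) and 45.1% in Ocn-/- testes (65.2%). In forebrain these shares were 31% (47.7%) for Ocn+/- and 37.2% (64.5%) for Ocn-/- pups. The direction of Pfkl, Pfkm, Pfkp and Pfkfb3 was lower under every scaling tried.

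The calls differed in how much they rested on single libraries. In forebrain Pfkl and Pfkp were called in both genotypes whichever library was left out, with log2 fold changes of -0.87 to -0.65 for Pfkl and -0.91 to -0.61 for Pfkp. Without forebrain WT 3 the adjusted p of edgeR was 0.00238 and 0.00496 for Pfkl and 0.00362 and 0.00878 for Pfkp. None of the other 5 members was called without it (log2 fold changes of -0.16 for Pfkm in each genotype to -0.005 for Pfkfb2 in Ocn-/- forebrain, edgeR, adjusted p of 0.379 or more). In testes every one of these calls was lost without at least 1 library. Without WT replicate 2, which had the highest Pfkl and Pfkp, the adjusted p of edgeR was 0.226 and 0.316 for Pfkl and 0.252 and 0.169 for Pfkp. That was the 1 library whose loss ended the call of Pfkp in Ocn-/- testes. Without WT replicate 1, which had the highest Pfkfb3, it was 0.258 and 0.445 for Pfkfb3, and 0.0645 for Pfkl in Ocn+/- testes. In Ocn+/- testes the call of all 3 members was lost without Ocn+/- replicate 1 (edgeR, adjusted p = 0.0571, 0.0607 and 0.057 for Pfkl, Pfkp and Pfkfb3) or replicate 3 (0.0725, 0.0541 and 0.0626), and that of Pfkl without Ocn-/- replicate 2 (0.059). In Ocn-/- testes the call of Pfkl was lost without Ocn-/- replicate 1, 2 or 3 (edgeR, adjusted p = 0.0687, 0.0855 and 0.122) or Ocn+/- replicate 3 (0.0533). That of Pfkfb3 was lost there without WT replicate 2 (edgeR, adjusted p = 0.122), Ocn-/- replicate 1 or 2 (0.118 and 0.0699) or Ocn+/- replicate 1 or 3 (0.0552 and 0.0616). With any library left out the log2 fold changes of the 3 genes in testes stayed below 0, between -1.24 and -0.35. A lone WT testis was then assumed to vary like the other groups.

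The comparison of Ocn-/- with Ocn+/- pups asks whether the loss of the second allele in the pup changed these genes when all mothers lacked osteocalcin. None of the 7 members was called in testes, where 0% of 16361 genes were, or in forebrain, where 0.00622% of 16076 were. By edgeR 1881 genes in testes and 515 in forebrain had an unadjusted p under 0.05, and DESeq2 called 76 and 5 genes, none of them a member. The log2 difference was -0.03 for Pfkl in testes (95% confidence interval -0.54 to 0.48) and 0.05 in forebrain (-0.15 to 0.26). For Pfkp it was -0.23 (-0.57 to 0.12) and 0.11 (-0.10 to 0.32), and for Pfkfb3 0.15 (-0.17 to 0.47) and 0.06 (-0.16 to 0.28). These intervals are narrower in forebrain than in testes, where they leave room for differences of some size.

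Whether the mutant effect differed between organs was tested as an interaction in a joint fit of all 17 libraries that set the average of Ocn+/- and Ocn-/- against WT. None of the 7 members was called, against 2.96% of 17800 genes in either direction (1.71% with the more negative and 1.24% with the more positive effect in testes). The difference was -0.28 ± 0.221 for Pfkl (edgeR, adjusted p = 0.531) and -0.16 ± 0.166 for Pfkp (edgeR, adjusted p = 0.651) on the log2 scale, with the larger fall in testes. It was largest in size for Pfkfb3, at -0.49 ± 0.175, with an unadjusted p of 0.00987 and an adjusted p of 0.125 in edgeR. The fall of Pfkfb3 in testes alone is therefore not shown to be particular to that organ.

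Most members differed in level between the organs, as most genes did. Pfkp was 0.0825 times as high in testes as in forebrain, with a log2 difference of -3.60 ± 0.0847 (edgeR, joint fit, adjusted p = 2.56e-22). Pfkm, Pfkfb2, Pfkfb3 and Pfkfb4 were also lower in testes, with log2 differences of -1.46, -1.06, -1.43 and -1.61. Pfkl and Pfkfb1 were not called (log2 differences of 0.21 and 0.39, edgeR, adjusted p = 0.0583 and 0.0753). So many genes differed between these organs that 5 of 7 members stand beside 39.9% of 17800 genes called lower in testes and 84.4% called in either direction. Without testes WT replicate 1, Ocn+/- replicate 2 or Ocn-/- replicate 3 Pfkl was called higher in testes (edgeR, adjusted p = 0.0204, 0.00159 and 0.0345). So was Pfkfb1 without testes Ocn+/- replicate 3, forebrain Ocn-/- replicate 1 or forebrain Ocn+/- replicate 3 (edgeR, adjusted p = 0.044, 0.0452 and 0.0408). With library size alone as the scaling the median difference of all genes moved from 0.09 to 0.40, and both genes were called higher (0.53 and 0.71). Both were also called with at least 10 counts required in every library (edgeR, adjusted p = 0.0339 for Pfkl and 0.0397 for Pfkfb1), and Pfkl without a filter on low counts (0.011). In bulk tissue fewer cells of a type and less RNA per cell cannot be told apart, in this comparison or in those of genotypes.

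To compare members with each other, CPM of the joint fit were divided by the length of the union of exons in kilobases. On this scale the order in forebrain was Pfkp (20.1 ± 5.82, mean and SD over 9 libraries), Pfkm (14.3 ± 0.936), Pfkfb3 (11.1 ± 1.35), Pfkl (6.16 ± 1.79), Pfkfb2 (3.92 ± 0.326), Pfkfb4 (3.91 ± 0.29) and Pfkfb1 (0.41 ± 0.0916). In testes it was Pfkl (6.87 ± 2.95, 8 libraries), Pfkm (5.14 ± 0.612), Pfkfb3 (4.05 ± 1.13), Pfkfb2 (1.89 ± 0.205), Pfkp (1.59 ± 0.581), Pfkfb4 (1.3 ± 0.269) and Pfkfb1 (0.551 ± 0.123). Pfkp and Pfkm in forebrain, Pfkfb2 and Pfkfb4 in forebrain, Pfkl, Pfkm and Pfkfb3 in testes, and Pfkp with either of its neighbours in testes lay within each other's spread. Genotypes are mixed in these means, so the SD holds the genotype difference too. In WT libraries alone Pfkp (26.5 to 29.2) lay above Pfkm (13.8 to 16.3) in forebrain, and Pfkl (9.38 and 12.9) above Pfkm (5.65 and 6.29) in testes. The order turned in forebrain Ocn+/- replicate 2 (13.6 for Pfkp and 14.4 for Pfkm), and in testes in Ocn+/- replicate 2 (3.72 for Pfkl and 4.91 for Pfkm) and Ocn-/- replicate 3 (4.68 and 5.25). Both WT testes also had Pfkp (2.11 and 2.79) above Pfkfb2 (1.85 and 1.74), unlike the pooled means. The order of the pooled means depends on the length used. With the canonical transcript, an alternative chosen after seeing the data, Pfkfb3 (5.79) came after Pfkfb2 (7.1) and Pfkp (6.07) in testes. In forebrain it came after Pfkl (15.9 against 19.4). In both WT testes Pfkfb2 (6.95 and 6.54) nonetheless stood below Pfkfb3 (9.26 and 6.81) at that length. It also stood below Pfkp (8.05 and 10.7), as with the union of exons. Pfkp was below Pfkfb3 in WT replicate 1 and above it in WT replicate 2. In forebrain Ocn+/- replicate 1 and Ocn-/- replicate 1 Pfkl (15.3 and 17.4) was below Pfkfb3 (16 and 17.9).

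As shares of the 3 subunits on that scale, Pfkl made up 49.1% ± 7.27 (SD) in testes and 15% ± 1.74 in forebrain, Pfkm 39.3% ± 6.93 and 36.1% ± 5.49, and Pfkp 11.6% ± 1.91 and 48.8% ± 4.68. Testes thus held mostly Pfkl and Pfkm transcripts and forebrain mostly Pfkp and Pfkm. In forebrain the share of Pfkm was 27.8% to 31.6% in WT, 37.6% to 44% in Ocn+/- and 37.9% to 39.4% in Ocn-/- libraries, with no overlap between WT and mutants. The share of Pfkp was 51.3% to 56.8% in WT, 41.5% to 48.3% in Ocn+/- and 44.8% to 48.8% in Ocn-/- libraries. In testes the share of Pfkm was 28.6% and 33% in WT, 35.1% to 48.1% in Ocn+/- and 39.3% to 47% in Ocn-/- libraries. The larger share of Pfkm in mutants is the other side of the fall of Pfkl and Pfkp, as its own CPM did not rise.

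Of the 4 PFKFB isoforms Pfkfb3 made up 51.4% ± 7.32 in testes and 57.3% ± 2.45 in forebrain on the same scale. Pfkfb2 made up 24.6% ± 3.51 and 20.3% ± 1.45, Pfkfb4 16.8% ± 3.43 and 20.3% ± 1.83, and Pfkfb1 7.2% ± 1.82 and 2.11% ± 0.437. In testes the share of Pfkfb3 was 57.8% and 65.7% in WT, 43.7% to 47.8% in Ocn+/- and 45.1% to 52.6% in Ocn-/- libraries. In forebrain it was 55.3% to 62.8% in WT and 54.9% to 58.6% in mutant libraries. With the canonical transcript Pfkfb2 led in testes over all libraries (41.3% against 33.2% for Pfkfb3) and in each of the 6 mutant testes, but Pfkfb3 led in both WT testes (46.7% and 39.2%, against 35% and 37.6%). In forebrain that length gave 37.1% for Pfkfb2, 40% for Pfkfb3, 19.5% for Pfkfb4 and 3.45% for Pfkfb1. All shares are descriptions without a test.

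**Figure D3:**
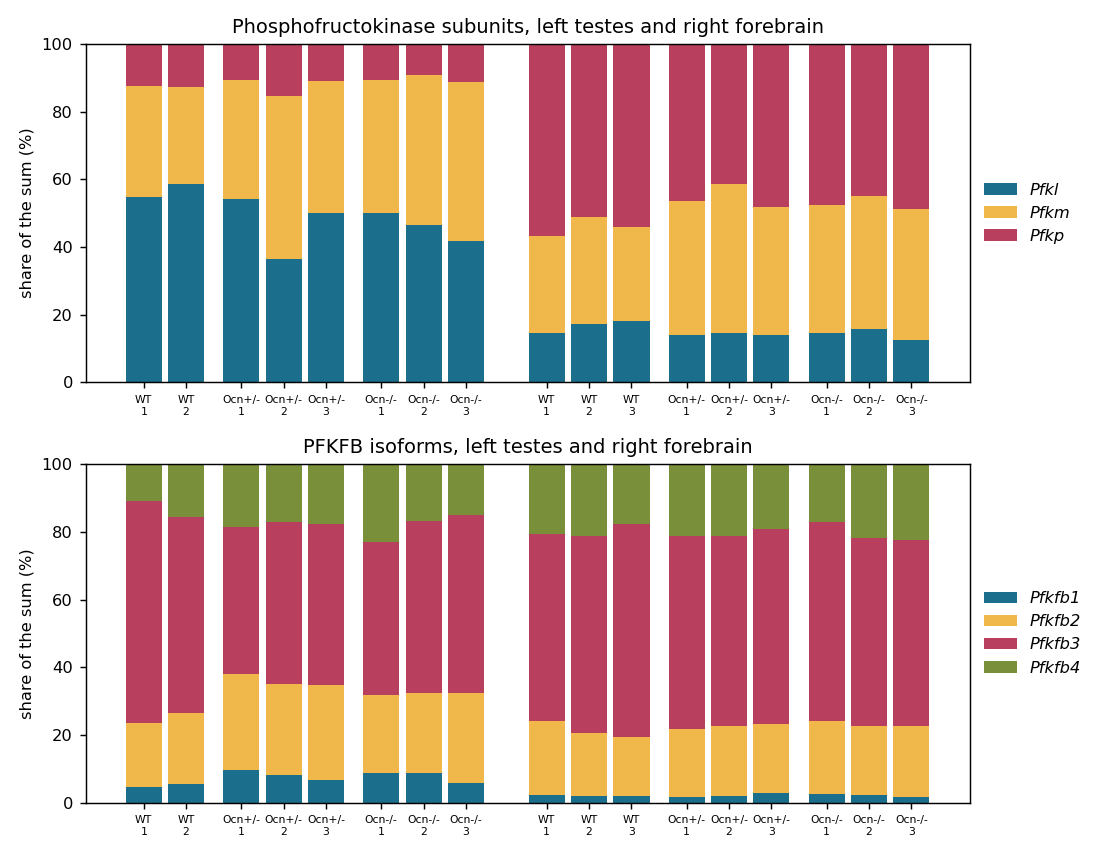
Share of each gene in the length-scaled sum of its family in every library, as stacked bars in percent, for the 3 phosphofructokinase subunits above and the 4 PFKFB isoforms below, with testes on the left and forebrain on the right. Pfkl is the widest band in WT testes (54.7% and 58.7%) and Pfkp in WT forebrain (51.3% to 56.8%), and the band of Pfkm is wider in all mutant libraries than in the WT libraries of the same organ.

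The other enzymes of glycolysis, from hexokinase to lactate dehydrogenase, were followed as a list of 24 genes, of which 19 passed the filter in each organ. In testes 10 were called lower in Ocn+/- and 9 in Ocn-/- pups, and in forebrain 4 in each genotype, with none higher. Over all genes tested 4.36% and 3.09% were called lower in testes and 2.68% and 3.05% in forebrain. Without forebrain WT 3 the counts there were 4 and 3. Their median log2 fold change was -0.46 and -0.74 in testes and -0.07 and -0.19 in forebrain. In testes Ldha, which makes lactate, fell with log2 fold changes of -1.54 in Ocn+/- and -1.49 in Ocn-/- pups, and the phosphoglycerate kinase Pgk1 with -1.57 and -1.51. The enolase Eno1 (-1.39 and -1.35), the triosephosphate isomerase Tpi1 (-1.17 and -1.22), the aldolase Aldoa (-0.86 and -0.81) and the pyruvate kinase Pkm (-0.78 and -1.02) fell there too (edgeR, adjusted p between 5.61e-06 and 0.0054 for these 6 genes). These 6 enzymes act after phosphofructokinase. Gpi1, which makes its substrate, also fell in testes (-0.47 and -0.74, edgeR, adjusted p = 0.0439 and 0.0053). In forebrain Gpi1 fell with log2 fold changes of -0.83 and -0.92 (edgeR, adjusted p = 4.39e-05 and 1.97e-05). Eno1 (-0.75 in each genotype) and Tpi1 (-0.38 and -0.36) fell there as well (edgeR, adjusted p of 0.0208 or less). Ldha (-0.38 and -0.29) was called in Ocn+/- and the hexokinase Hk2 (-0.72 and -0.87) in Ocn-/- forebrain.

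Counts of this list changed with single libraries and with the scaling. Without testes WT replicate 2 they were 4 and 5. In forebrain they were 2 in Ocn+/- pups without WT replicate 2, Ocn+/- replicate 1 or Ocn+/- replicate 2, and 2 in Ocn-/- pups without WT replicate 2, Ocn-/- replicate 1 or Ocn-/- replicate 2. With library size alone as the scaling they were 2 in both genotypes there.

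The enzymes that work against phosphofructokinase were low or not called. Fructose bisphosphatase Fbp1 passed the filter in testes alone (log2 fold changes of 0.61 ± 0.678 and -0.20 ± 0.704) and Fbp2 in neither organ. Tigar, which degrades fructose 2,6-bisphosphate, had log2 fold changes of 0.34 and 0.35 in testes and 0.37 and 0.50 in forebrain and was not called (edgeR, adjusted p of 0.102 or more). Of the 7 subunits of AMPK, the energy sensor that phosphorylates Pfkfb2 and Pfkfb3, 2 were called lower in Ocn+/- testes, against 4.36% of all genes, Prkaa2 (-0.89 ± 0.209) and Prkab2 (-0.55 ± 0.166, edgeR, adjusted p = 0.0181 and 0.0495). None was called in Ocn-/- testes or in either genotype in forebrain.

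A list of 18 hypoxia-inducible genes outside glycolysis was followed because several members are known targets of hypoxia-inducible factors. In testes all 18 were tested and 10 were called lower in each genotype. In forebrain 17 were tested, and 9 were called lower in Ocn+/- and 10 in Ocn-/- pups, with none higher in either organ, beside the same shares of all genes (4.36% and 3.09% lower in testes, 2.68% and 3.05% in forebrain). The median log2 fold change was -0.73 and -0.84 in testes and -0.46 and -0.52 in forebrain. In testes the mitochondrial protein Bnip3 (-1.78 and -1.55), the prolyl hydroxylase P4ha1 (-1.48 and -1.20) and Vegfa, the growth factor of vessels (-1.12 and -1.24), fell (edgeR, adjusted p of 0.00025 or less). Pdk1, whose kinase limits the entry of pyruvate into the citric acid cycle (-1.10 and -0.82), P4ha2 (-0.78 and -1.05) and the glucose transporter Slc2a1 (-0.80 and -0.92) also fell there (edgeR, adjusted p of 0.00862 or less). In forebrain Slc2a1 (-1.24 and -1.14), Vegfa (-1.15 and -1.22), P4ha1 (-0.92 and -0.76), Pdk1 (-0.66 and -0.70), the demethylase Kdm3a (-0.59 and -0.58) and Bnip3 (-0.54 and -0.64) fell (edgeR, adjusted p of 0.017 or less). Without testes WT replicate 2 the counts were 5 and 3, and in Ocn+/- testes 6 without WT replicate 1. In Ocn+/- forebrain the count ran from 6 to 10 with 1 library left out (6 without Ocn+/- replicate 2 or 3, and 7 without WT replicate 3), and was 6 with library size alone. In Ocn-/- forebrain it was 6 without WT replicate 2, 5 without WT replicate 3 and 5 without Ocn-/- replicate 2.

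**Figure D4:**
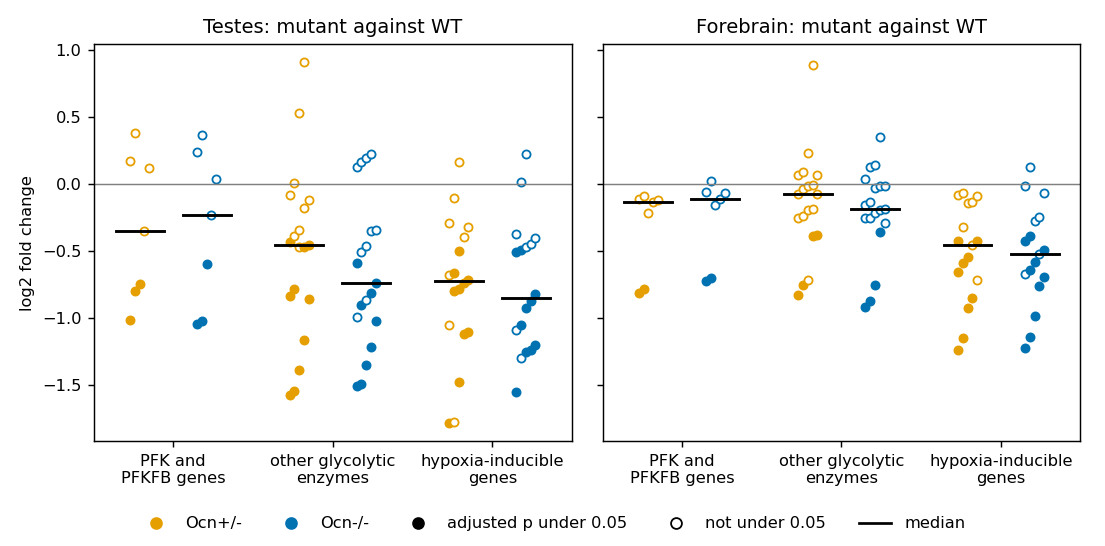
Log2 fold change against WT for the 7 PFK and PFKFB genes, the other glycolytic enzymes and the hypoxia-inducible genes, 1 point per gene tested in each mutant genotype, filled where the adjusted p of edgeR was under 0.05, with a line at the median, for testes on the left and forebrain on the right. Filled points lie below 0 in all 3 groups and both organs, and the median of the other glycolytic enzymes is lower in testes (-0.46 and -0.74) than in forebrain (-0.07 and -0.19).

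Markers of other cells moved with these genes in testes. These counts of markers stand beside 4.36% of all genes called lower and 3.89% higher in Ocn+/- testes, 3.09% and 2.54% in Ocn-/- testes, and 2.68% and 3.05% called lower in Ocn+/- and Ocn-/- forebrain. The 6 endothelial markers summed to 558 and 570 CPM in WT, 356 to 420 in Ocn+/- and 329 to 366 in Ocn-/- testes, and 3 and 5 of 6 were called lower. Neutrophil markers summed to 40.6 to 66.3 CPM in WT and to at most 13.8 in mutant testes, with 3 and 4 of the 5 tested called lower and 1 of the 6 at 0 in both WT libraries. Leydig cell markers summed to 1690 to 1770 CPM in WT and 714 to 1250 in mutant testes, with 1 of 6 called lower in each genotype. Erythroid markers, none of them called, ranged from 2600 to 6870 CPM in WT and from 865 to 3940 in mutant testes. Macrophage markers had 1 of 6 called higher in Ocn+/- testes, germ cell markers none, Sertoli cell markers 1 of 6 higher in each genotype, and skeletal muscle markers, at 9.17 to 16.1 CPM, none. In adipocytes 1 of the 2 markers tested was called lower in each genotype. In forebrain genes of its regions summed to 1010 to 1350 CPM in WT and 699 to 945 in mutant libraries, with 1 of 6 called lower in Ocn-/- pups. Endothelial markers there summed to 139 to 168 CPM in WT and 111 to 162 in mutant libraries, with 2 and 1 of 6 called lower, and erythroid markers had 3 and 1 of 6 called lower. Neuronal markers had none called in either organ. The part of these cells in the fall of Pfkl, Pfkp and Pfkfb3 was not tested.

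The genes whose pattern over libraries was most like that of a member were sought by the root mean square difference of centred log2 CPM, among genes that averaged 5 CPM or more. In testes the member with the smallest p for mutants against WT was Pfkp, and its nearest genes over 8 libraries were Myom1 (0.078), Vwf (0.09), Ndrg1 (0.12), P4ha2 (0.129) and Rian (0.139) of 12499 genes. Vwf is a product of endothelial cells, and Ndrg1 and P4ha2 are on the list of hypoxia-inducible genes. In forebrain it was Pfkl, and its nearest genes over 9 libraries were Eno1 (0.084), Pdlim7 (0.092), Tra2a (0.092), Sntb2 (0.101) and B3gnt5 (0.102) of 11917 genes. Eno1 is itself a glycolytic enzyme. Both members were chosen for their difference from WT, so genes with the same difference are favoured as their nearest. What these nearest genes have in common was not tested.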

How the data were processed

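RNA was sequenced by the authors from 17 libraries of mice at postnatal day 1, and each library was assigned to organ, genotype and replicate by its label. Messenger RNA was selected by poly-T, and libraries were made with a NEBNext Ultra kit. According to the methods and the submitters' processing notes, reads were trimmed with Trim Galore 0.6.6, aligned to GRCm39 with STAR 2.7.8a and counted with RSEM 1.3.3. The authors deposited expected counts from RSEM, which were not normalized. Reads with several matches are shared out by RSEM, so values need not be whole, and a fraction appeared for 9625 of 55359 genes. The GENCODE release and strandedness are not given in the sources used here.

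Names, positions and lengths came from the GENCODE annotation of GRCm39, which held 54749 of the identifiers, and promoter sequences from RefSeq (GRCm38.p6). Expected counts were rounded. R 4.3.3 and edgeR 4.0.16 fitted each organ with all genotypes, and both organs jointly, with TMM normalization, the low-count filter filterByExpr (design by genotype) and quasi-likelihood tests with robust moderation. Calls needed a two-sided p under 0.05 after Benjamini-Hochberg adjustment across all genes tested. Levels are CPM from TMM-scaled library sizes. Log2 CPM for the nearest patterns used a prior count of 2. Alternatives were DESeq2 1.42.0 and its size factors in edgeR, library size alone, no filter, at least 10 counts in every library, a fit of only 2 genotypes, a block on replicate numbers, each library left out, and other gene lengths. Intervals are 95% confidence intervals.

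The members and lists were chosen with earlier results of these data known. Named genes are the 7 members in both organs, the osteocalcin genes, and from each of 4 pathway lists the called genes with the smallest p against WT, at most 6 per list and organ, and all members of a list of 3. For the member with the smallest p in each organ the 5 nearest genes were named. The genes that overlap members were named after their values were seen.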

Additional observations from a re-analysis of the deposited data

Results flagged for a closer look

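None of the 7 members had a mutant effect that differed between the organs by the interaction test, and no group was large enough for a test of single outlying libraries. Among the named genes of the pathway lists 9 did differ, by the interaction of organ and mutant genotype in the joint fit (edgeR, adjusted over 17800 genes, of which 2.96% were called). These genes were named for a small p within an organ, which favours a difference between organs. The log2 difference, testes minus forebrain, was -1.33 for Pgk1 (adjusted p = 1.07e-05), -1.19 for Ldha (4.35e-05), -0.83 for Tpi1 (0.00115), -0.71 for Pkm (0.00811), -0.63 for Eno1 (0.0106) and -0.60 for Aldoa (0.017), all of them glycolytic enzymes that fell more in testes. It was -1.08 for Bnip3 (edgeR, adjusted p = 0.000415) and -0.64 for Prkaa2 (0.0432). For Hk2 it was 0.81 (edgeR, adjusted p = 0.0324), since Hk2 was lower in mutant forebrain (-0.72 and -0.87) and near WT in testes (-0.12 and 0.22). Over the whole lists 8 of 21 glycolytic enzymes tested differed in the first direction and 1 in the other, as did 2 of 18 hypoxia-inducible genes and 1 of 7 AMPK subunits in the first direction. Without testes WT replicate 2 the number of glycolytic enzymes called was 3 and that of hypoxia-inducible genes 1.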

How the results depend on the processing

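Forebrain Pfkl and Pfkp were called in both genotypes under every alternative, with log2 fold changes from -0.87 to -0.62 and from -0.91 to -0.60. In testes the number of members called, 3 in each genotype, was 0 to 3 in each with 1 library left out, and 1 in Ocn-/- testes with library size alone. The sources do not say whether replicate numbers pair the samples. Correlations of same-numbered libraries were -0.09 to 0.09 in testes and -0.04 to 0.15 in forebrain. Different numbers gave -0.119 to 0.119 and -0.197 to 0.105. Those of same numbers did not all pass 0.1, so the numbers were not taken as pairs. Between organs same numbers gave 0.01 to 0.10, against -0.08 to 0.02 for different numbers. Of 8 testes libraries 7 correlated best with the forebrain library of their own number, a hint from the data and not from the design. These matches are not independent, since each correlation is of deviations from the mean of a group of 2 or 3 libraries. With the replicate block 2 members were called in Ocn+/- and 1 in Ocn-/- testes, where Pfkl had log2 fold changes of -1.04 and -1.06 (edgeR, adjusted p = 0.145 and 0.143), and Pfkl was called between organs (adjusted p = 0.0143). The block gave 966 and 836 genes called in testes, 768 and 1140 in forebrain and 492 for the interaction. Pfkfb3 in Ocn-/- testes was also lost with the block (edgeR, adjusted p = 0.0681). With library size alone Pfkl missed the threshold in both genotypes (0.0517 and 0.054), and with only the 2 genotypes compared in Ocn+/- testes (0.0631), as did Pfkfb3 in Ocn-/- testes with either setting (0.0739 and 0.0573). Numbers of genes called were 2149 (no filter) and 2084 (only 2 genotypes) against 1350 in Ocn+/- testes, 1763 (no filter) against 922 in Ocn-/- testes, 1265 (no filter) and 369 (library size alone) against 625 in Ocn+/- forebrain, and 1502 (no filter) against 780 in Ocn-/- forebrain. Between Ocn-/- and Ocn+/- they were 76 (DESeq2), 252 (no filter), 3 (at least 10 counts) and 1 (replicate block) against 0 in testes, and 5 (DESeq2), 34 (no filter), 2 (library size alone), 0 (at least 10 counts) and 0 (only 2 genotypes) against 1 in forebrain. For the interaction they were 1027 (DESeq2) and 1023 (no filter) against 526. With 1 library left out they ran from 118 to 2019 and 85 to 1559 in testes, 183 to 830 and 189 to 919 in forebrain, 0 to 47 and 1 to 2 between the mutant genotypes, and 93 to 1070 for the interaction. Without a filter more genes were tested. For the other settings the cause was not tested.

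Signs turned for log2 fold changes near 0 that were not called. With library size alone Pfkfb1 was 0.038 and Pfkfb4 0.031 in Ocn-/- forebrain. Pfkm between mutant forebrains was -0.001 with at least 10 counts and -0.004 with only 2 genotypes. With 1 library left out Pfkfb2 ran from -0.055 to 0.14 and Pfkfb4 from -0.04 to 0.39 in Ocn-/- testes, Pfkfb1 from -0.41 to 0.026 in Ocn+/- forebrain, and Pfkfb1 from -0.32 to 0.15 and Pfkfb2 from -0.077 to 0.086 in Ocn-/- forebrain. Between mutant testes Pfkl ran from -0.25 to 0.14, Pfkfb1 from -0.20 to 0.16 and Pfkfb4 from -0.17 to 0.26. Between mutant forebrains Pfkl ran from -0.009 to 0.13, Pfkm from -0.031 to 0.051, Pfkfb1 from -0.18 to 0.36, Pfkfb3 from -0.055 to 0.14 and Pfkfb4 from -0.02 to 0.13. The interaction of Pfkp ran from -0.35 to 0.049. Pfkfb1 rested on 14 to 44 counts per library, and the part of depth in its spread was not tested.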
